A study of Arabidopsis thaliana with 12 samples.

Results

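The genes described here are 23 cytochrome P450 genes measured on 12 Affymetrix expression arrays of Arabidopsis thaliana roots, out of 22746 probe sets tested. Members were taken from probe sets annotated to 1 gene whose symbol has the form of a P450 name (CYP, a family number, a subfamily letter and a gene number), and each had 1 probe set. The RefSeq gene table for TAIR10.1 holds 236 symbols of that form, so the 23 are a minority of the family. The other P450 genes are not among the members, and a few are described only under Other observations. By family number, 19 members belong to CYP71, all in subfamily CYP71B. CYP51, CYP78, CYP79 and CYP84 contribute 1 gene each, CYP51G2, CYP78A9, CYP79A2 and CYP84A4. The gene table lists CYP51G2 and CYP71B27 as transcribed pseudogenes.

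Plants were of the accession Ws, the wild type, or carried afb3-1, a mutation in the auxin receptor gene AFB3. Seedlings of both genotypes grew in hydroponic culture for 14 days, fed 3 mM sucrose and, for nitrogen, 0.5 mM ammonium succinate. On day 15 they received KNO3 for 2 h, and controls received KCl, each at 5 mM. RNA came from whole roots. Each of the 4 groups (Ws KCl, Ws KNO3, afb3-1 KCl, afb3-1 KNO3) had 3 arrays, described as independent biological replicates. All values are log2 signals as deposited, and the number of arrays limits the precision.

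Cytochrome P450s are haem enzymes that, with electrons from NADPH, insert an oxygen atom into small molecules. In plants they act in the synthesis and breakdown of hormones, in lignin and wax formation and in defence compounds, and family numbers group enzymes by sequence similarity. CYP71B is a large Arabidopsis subfamily with many genes in tandem arrays, and its best known member makes the defence compound camalexin. Nitrate acts in roots both as a nutrient and as a signal that changes the expression of many genes within hours.

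Of the 5 members with the largest responses, CYP78A9 was the only one that was higher after nitrate. CYP78A9 (AT3G61880) is a relative of KLUH, a P450 that promotes organ growth, and raised CYP78A9 activity is known to enlarge seeds and fruits. Its log2 signal in Ws was 3.61, 2.95 and 3.12 on the KCl arrays and 6.36, 4.18 and 5.55 on the KNO3 arrays, in order of replicate number. In afb3-1 it was 2.79, 2.67 and 3.28 in KCl and 6.38, 4.27 and 6.23 in KNO3. All 6 KNO3 arrays lay above all 6 KCl arrays, and the KNO3 arrays numbered 2 were the lowest KNO3 arrays in both genotypes.

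The log2 change of CYP78A9 was 2.71 ± 0.58 (SE), or 6.55-fold, in afb3-1, which passed the threshold (limma, adjusted p = 0.0295). In Ws it was 2.14 ± 0.58 (SE), or 4.40-fold, which did not pass (adjusted p = 0.0898). Averaged over the genotypes it rose by 2.43 on the log2 scale (95% interval 1.52 to 3.33, adjusted p = 0.00373). Within a treatment, the Ws and afb3-1 arrays with the same number had correlated deviations, so they are not fully separate. With the replicate number within a treatment as a random block the adjusted p of CYP78A9 was 0.0416 in Ws, 0.0110 in afb3-1 and 0.00501 for the average. With 1 mean for each same-numbered pair, a test on 3 values against 3, the adjusted p of the average was 0.0830. The call in afb3-1 was lost without KCl replicate 1 (adjusted p = 0.121), KCl replicate 2 (adjusted p = 0.122), KCl replicate 3 (adjusted p = 0.0620), KNO3 replicate 1 (adjusted p = 0.123) or KNO3 replicate 3 (adjusted p = 0.142) of afb3-1. It was also lost without both KCl arrays numbered 3 (adjusted p = 0.0548) and without variance moderation (adjusted p = 0.125). The Ws value passed without Ws KNO3 replicate 2 (2.73, adjusted p = 0.0261) or without afb3-1 KNO3 replicate 2 (adjusted p = 0.0299). Without both of these arrays CYP78A9 rose by 2.73 in Ws (adjusted p = 0.000892) and by 3.39 in afb3-1 (adjusted p = 0.000219). RNA of whole roots was measured, so a change in the number of cells of a type and a change in RNA per cell cannot be told apart.

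The KNO3 arrays numbered 2 were low for CYP78A9 in both genotypes. Against the mean of the other 2 KNO3 arrays of its genotype, CYP78A9 on array 2 had a log2 difference of −1.77 in Ws and −2.03 in afb3-1. For the 103 probe sets called higher by more than 4-fold with nitrate averaged over genotypes, the median of the same difference was −0.39 in Ws and −0.28 in afb3-1. Single probe sets among the 103 went down to −3.22 and −2.90, and 3 in Ws and 2 in afb3-1, CYP78A9 included, were at or below the CYP78A9 value. The part of these arrays in the CYP78A9 result was not tested beyond leaving them out. CYP78A9 had a within-group SD of 0.84, higher than 99.1% of probe sets. The other 4 of the 5 most variable members were CYP71B34 (0.41), CYP71B23 (0.41), CYP71B29 (0.34) and CYP84A4 (0.33), against a median of 0.19 over all probe sets.

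**Figure D1:**
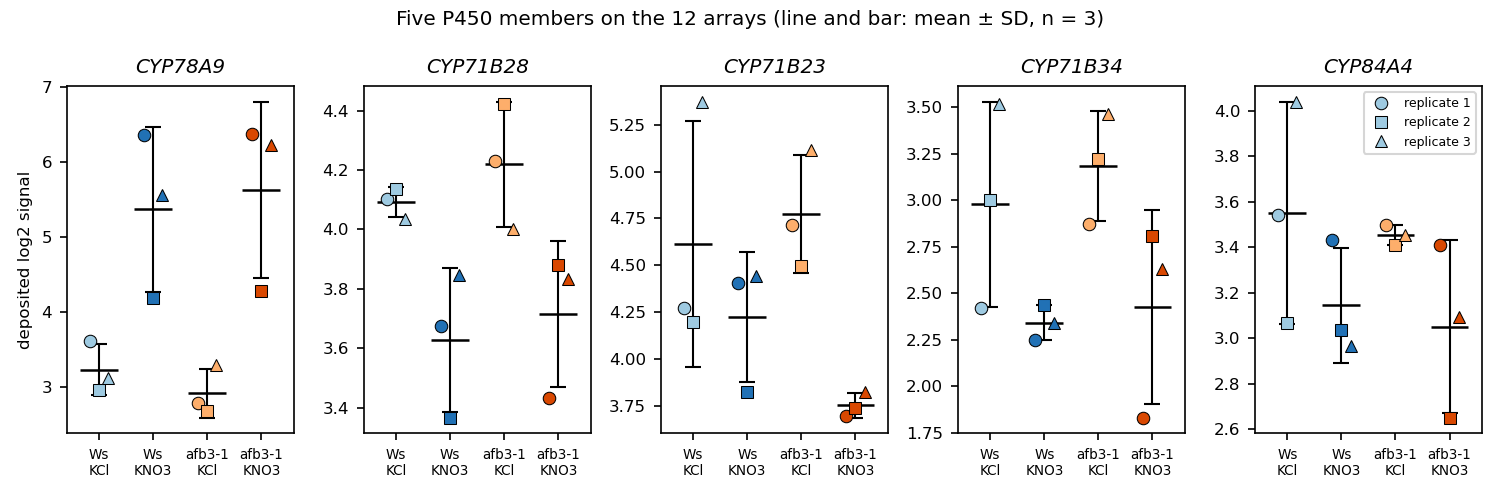
Deposited log2 signal (vertical axis, a separate scale in each panel) of 5 P450 members in the 4 groups, with a marker shape for each replicate number and the mean ± SD of 3 arrays. CYP78A9 was at 4.18 or higher on every KNO3 array and at 3.61 or lower on every KCl array. CYP71B28 was at 3.88 or lower on every KNO3 array and at 4.001 or higher on every KCl array.

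CYP71B28 (AT1G13090) was lower after nitrate in both genotypes. It was 4.103, 4.14 and 4.04 on the Ws KCl arrays and 3.67, 3.37 and 3.85 on the Ws KNO3 arrays. In afb3-1 it was 4.23, 4.42 and 4.001 in KCl and 3.43, 3.88 and 3.83 in KNO3. The 6 KNO3 arrays all lay below the 6 KCl arrays. The log2 change of CYP71B28 was −0.46 ± 0.16 (SE) in Ws and −0.50 ± 0.16 in afb3-1, neither past the threshold (limma, adjusted p = 0.203 and 0.175). Averaged over the genotypes it fell by 0.48 on the log2 scale (95% interval −0.73 to −0.23, adjusted p = 0.0257). That call was lost with the replicate number within a treatment as a random block (adjusted p = 0.0974), with pair means (adjusted p = 0.111) and without moderation (adjusted p = 0.0607). The CYP71B28 call was also lost without any 1 of 6 arrays, with adjusted p of 0.0639 and 0.0690 (afb3-1 KCl replicates 1 and 2), 0.0525 (afb3-1 KNO3 replicate 1), 0.0568 and 0.0569 (Ws KCl replicates 1 and 2) and 0.0563 (Ws KNO3 replicate 2), and without both KNO3 arrays numbered 2 (0.0508).

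CYP71B23 (AT3G26210) and CYP71B34 (AT3G26300) were lower after nitrate by point estimate, and neither passed in a nitrate test of the model with group means alone (smallest adjusted p = 0.0694 for CYP71B23, limma). CYP71B23 was 4.72, 4.50 and 5.12 in afb3-1 KCl and 3.69, 3.74 and 3.82 in afb3-1 KNO3, without overlap. In Ws it was 4.27, 4.19 and 5.37 in KCl and 4.40, 3.82 and 4.44 in KNO3, which overlapped. The highest CYP71B23 signal of each genotype was on KCl array 3. The log2 change of CYP71B23 was −1.02 ± 0.29 (SE) in afb3-1 (adjusted p = 0.113) and −0.39 ± 0.29 in Ws (adjusted p = 0.645). Without Ws KCl replicate 3 the Ws value was −0.01, and the afb3-1 value, unchanged at −1.02, then passed (adjusted p = 0.0117). The CYP71B23 value in afb3-1 also passed with array weights (adjusted p = 0.0162) and when the 6 afb3-1 arrays were fitted alone (adjusted p = 0.0234). Without both KCl arrays numbered 3 it was −0.85 (adjusted p = 0.0327). It passed too with a fixed replicate block over all arrays (adjusted p = 0.0198). That block joins same-numbered arrays of both treatments, whose deviations correlated within a genotype by only −0.281 to 0.542. Averaged over the genotypes, CYP71B23 was at −0.71 (adjusted p = 0.0694), which passed with the fixed replicate block (adjusted p = 0.0122) and without Ws KCl replicate 2 (adjusted p = 0.0461).

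CYP71B34 was 2.42, 3.00 and 3.52 in Ws KCl and 2.25, 2.44 and 2.34 in Ws KNO3. In afb3-1 it was 2.87, 3.22 and 3.46 in KCl and 1.83, 2.81 and 2.63 in KNO3. The groups overlapped in Ws by 1 KCl array and did not overlap in afb3-1. The log2 changes of CYP71B34 were −0.64 ± 0.29 (SE, adjusted p = 0.382) in Ws and −0.76 ± 0.29 (adjusted p = 0.310) in afb3-1, and the average was −0.70 (adjusted p = 0.0754). The average of CYP71B34 passed with the fixed replicate block (adjusted p = 0.00780) and without Ws KCl replicate 1 (−0.84, adjusted p = 0.0286).

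CYP84A4 (AT5G04330) makes a catechol-type precursor of arabidopyrones, a group of alpha-pyrone metabolites. Its log2 signal was 3.54, 3.07 and 4.04 in Ws KCl, 3.43, 3.04 and 2.96 in Ws KNO3, 3.50, 3.41 and 3.46 in afb3-1 KCl, and 3.41, 2.65 and 3.09 in afb3-1 KNO3. Highest and lowest arrays overlapped in Ws, and in afb3-1 KNO3 replicate 1 and KCl replicate 2 had the same deposited value. The log2 change of CYP84A4 was −0.41 ± 0.24 (SE) in Ws and −0.40 ± 0.24 in afb3-1, and the average did not pass (−0.40, adjusted p = 0.255).

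Counts of members called were near the share of all probe sets called. In Ws, 0 of the 23 members passed the adjusted p of 0.05 (limma), where 2.89% of all probe sets did. Without moderation 0 passed too, against 1.76% of all probe sets. With no adjustment, 2 members had p under 0.05, CYP78A9 and CYP71B28, against 13.3% of all probe sets. In afb3-1, 1 of 23 passed against 2.76% of all probe sets, and 4 had an unadjusted p under 0.05, against 11.1%. For the average over genotypes 2 of 23 passed against 6.66%, 1 higher against 3.47% and 1 lower against 3.19%, and 5 had an unadjusted p under 0.05, against 16.8%. The 3 KNO3 arrays lay entirely to one side of the 3 KCl arrays for 3 members in Ws (CYP78A9, CYP71B28 and CYP71B22) and for 5 in afb3-1 (CYP78A9, CYP71B28, CYP71B23, CYP71B34 and CYP71B37), where 17.3% and 17% of all probe sets did. All 6 KNO3 arrays lay to one side of all 6 KCl arrays for 2 of 23, against 5.51% of all probe sets. The median log2 change of the members was −0.06 in Ws and 0.01 in afb3-1, beside −0.03 and 0.00 over all probe sets. For the 19 CYP71B members it was −0.07 and 0.00. For the 9 members above the dimmest tertile of signal it was −0.22 and −0.21, beside −0.0072 and −0.04 over all probe sets above it.

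**Figure D2:**
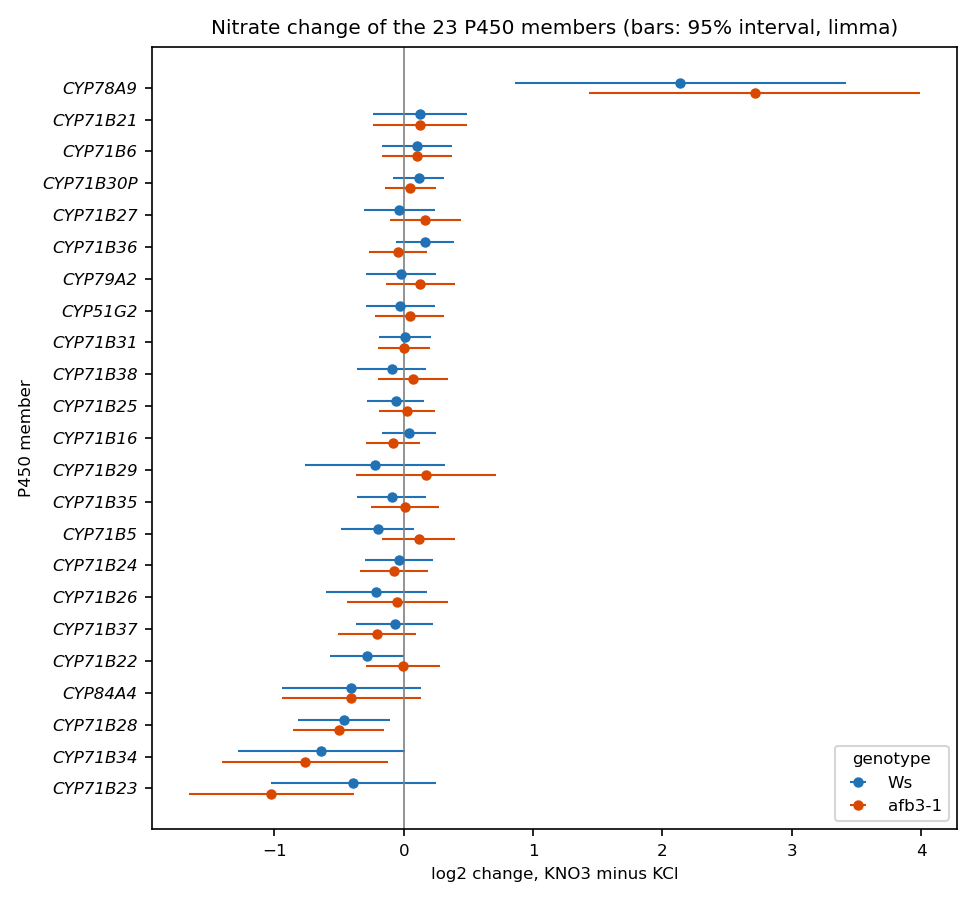
Log2 change (KNO3 minus KCl, horizontal axis) of each of the 23 members in Ws and afb3-1, with 95% intervals from limma, ordered by the average of the genotypes. CYP78A9 stands at 2.14 and 2.71, and the 18 members other than the 5 described lie between −0.28 and 0.17.

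None of the other 18 members passed in a nitrate test (smallest adjusted p = 0.378, CYP71B22 in Ws, limma). Their log2 changes ran from −0.28 (CYP71B22) to 0.17 (CYP71B36) in Ws and from −0.21 (CYP71B37) to 0.17 (CYP71B29) in afb3-1, with a median half-width of the 95% interval of 0.27. Of the 18, 14 had a mean log2 signal of at most 2.32, the upper bound of the dimmest tertile, with signals between 0.78 and 2.19 on all arrays. At such signals a fold change may be understated, which was not tested. Their small changes therefore do not show that these genes did not respond. These 14 are CYP51G2, CYP79A2, CYP71B5, CYP71B16, CYP71B21, CYP71B22, CYP71B24, CYP71B25, CYP71B27, CYP71B30P, CYP71B31, CYP71B35, CYP71B36 and CYP71B38. The 4 brighter ones were CYP71B6, CYP71B26, CYP71B29 and CYP71B37.

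Among members with a known product, CYP71B6 (AT2G24180) oxidises indole-3-acetonitrile, a breakdown product of tryptophan-derived defence compounds. Its signal stayed between 6.34 and 6.83 on all 12 arrays, with an average nitrate change of 0.10 ± 0.09 (SE, adjusted p = 0.674). CYP79A2 (AT5G05260) converts phenylalanine to its aldoxime, the first step to benzylglucosinolate. Its average nitrate change was 0.05 ± 0.09 (SE, adjusted p = 0.868), at signals of 1.26 to 1.63. CYP71B37 ranged from 6.47 to 7.001, and its lowest signals, 6.47 in Ws and 6.53 in afb3-1, were on the KNO3 arrays numbered 2, as for CYP78A9. Its average change was −0.14 (adjusted p = 0.571). The average changes of CYP71B22 (−0.15, adjusted p = 0.511), CYP71B30P (0.08, adjusted p = 0.634) and CYP71B21 (0.13, adjusted p = 0.714) did not pass either.

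**Figure D3:**
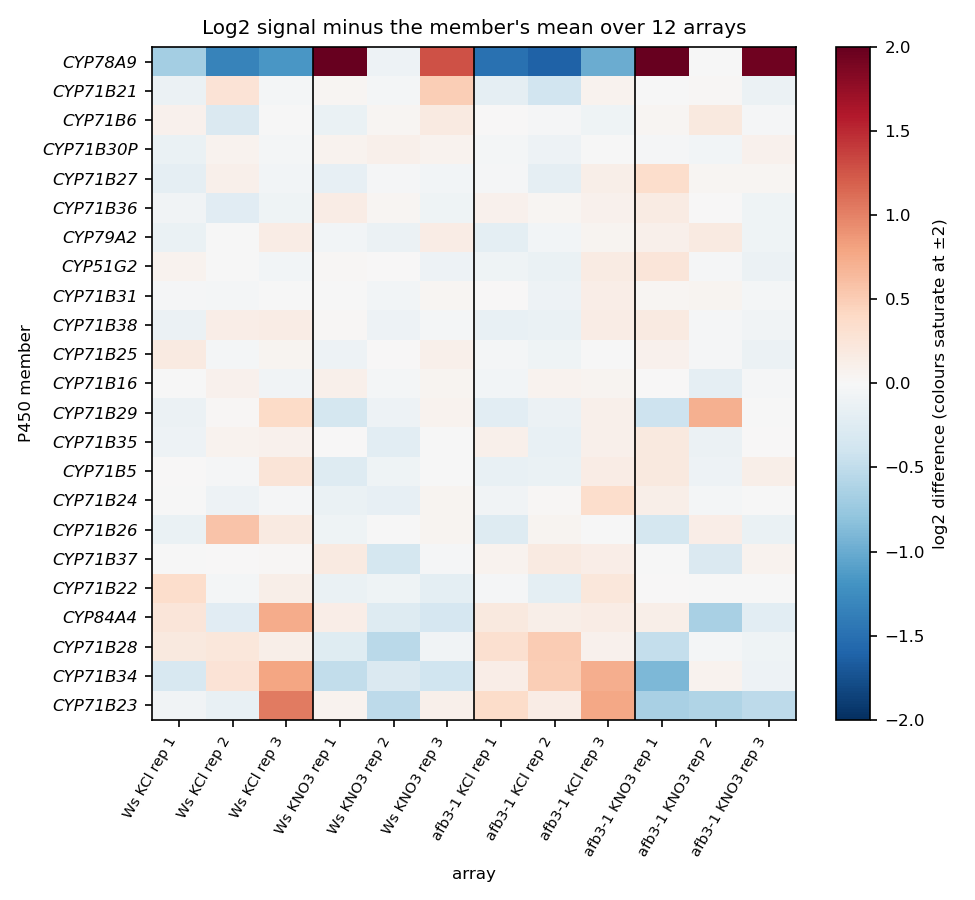
Log2 signal of each member minus its own mean over the 12 arrays, with arrays in columns by group and members in rows, where red is above and blue below the mean. CYP78A9 is blue on the 6 KCl arrays and near its mean on both KNO3 arrays numbered 2 (4.18 and 4.27), and CYP71B23 is reddest on the KCl arrays numbered 3 (5.37 and 5.12).

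Point estimates of the nitrate change ranged widely between some neighbouring CYP71B genes and little between others. In the order of the gene table, 11 members lie in a stretch of 25 genes on chromosome 3, from CYP71B16 to CYP71B37, of which 18 have P450 names. Their median log2 change was −0.07 in Ws and −0.05 in afb3-1. CYP71B22 and CYP71B23 are adjacent, with average changes of −0.15 and −0.71. CYP71B34, CYP71B35, CYP71B36 and CYP71B37 follow each other, with −0.70, −0.04, 0.06 and −0.14. On chromosome 1, CYP71B28 (−0.48) is next to CYP71B29 (−0.02). In a second group on chromosome 3, CYP71B5 (−0.04) is next to CYP71B30P (0.08). Differences between neighbours were not tested, and CYP71B22, CYP71B35 and CYP71B36 are among the dim members. Tandem copies can be similar in sequence, and how far each probe set separates them was not tested.

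**Figure D4:**
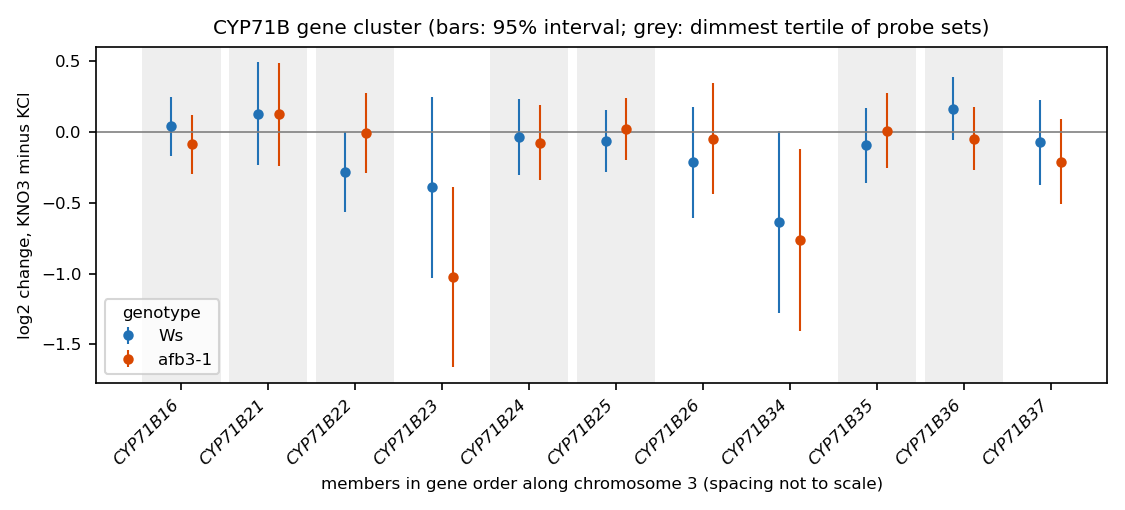
Log2 change (KNO3 minus KCl, vertical axis) of the 11 members of the chromosome 3 stretch in gene order, with 95% intervals from limma for Ws and afb3-1 and grey bands for members in the dimmest tertile of probe sets. The lowest points are CYP71B23 at −1.02 in afb3-1 and CYP71B34 at −0.64 and −0.76.

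The study asked whether the response to nitrate depends on AFB3. For the 23 members no difference between the responses passed (0 of 23 and 0% of all probe sets, smallest adjusted p = 0.999, limma). An unadjusted p under 0.05 was found for 0 members (2.92% of all probe sets). Without moderation 0 passed (0% of all probe sets). The intervals were wide for the members with large responses. The difference, afb3-1 minus Ws, was 0.57 for CYP78A9 (95% interval −1.24 to 2.39), −0.63 for CYP71B23 (−1.54 to 0.27), −0.12 for CYP71B34 (−1.04 to 0.79), −0.04 for CYP71B28 (−0.54 to 0.46) and 0.00 for CYP84A4 (−0.76 to 0.76). With same-numbered arrays as pairs within a treatment, the intervals were −0.0028 to 1.15 for CYP78A9, −1.13 to −0.13 for CYP71B23, −0.63 to 0.38 for CYP71B34, −0.49 to 0.41 for CYP71B28 and −0.52 to 0.53 for CYP84A4. The paired value of CYP71B23 had an unadjusted p of 0.0185 and did not pass (limma, adjusted p = 0.486). The 5 members with the smallest p were CYP71B5 (0.32 ± 0.18 SE), CYP71B23, CYP71B22 (0.28), CYP71B36 (−0.21) and CYP71B27 (0.20), with unadjusted p between 0.111 and 0.275.

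The genotypes were also compared within each treatment. In KCl 0 of 23 members passed (0% of all probe sets, limma), with 0 at an unadjusted p under 0.05 (2.65% of all probe sets) and 0 without moderation (0%). The smallest p were those of CYP71B36 (0.20 ± 0.10 SE, afb3-1 minus Ws), CYP71B26 (−0.28), CYP71B24 (0.15), CYP71B21 (−0.20) and CYP71B25 (−0.11). In KNO3 0 of 23 passed as well (0% of all probe sets), again with 0 at an unadjusted p under 0.05 (2.37% of all probe sets) and 0 without moderation (0%). The smallest p in KNO3 were those of CYP71B27 (0.22 ± 0.13 SE), CYP71B23 (−0.47), CYP71B5 (0.19), CYP71B21 (−0.20) and CYP71B22 (0.14). Arrays of the genotypes did not overlap for CYP71B36 and CYP71B37 in KCl and for CYP71B22 and CYP71B27 in KNO3, which is 2 of 23 in each, where 6.85% and 8.68% of all probe sets did not. CYP78A9 differed by −0.31 ± 0.58 (SE) in KCl and 0.26 ± 0.58 in KNO3. Taking same-numbered arrays as pairs, limma called 0 members in either treatment, and 0% of all probe sets. In that fit CYP71B26 in KCl (unadjusted p = 0.0473, adjusted p = 0.701) and CYP71B23 in KNO3 (0.0144 and 0.498) were under an unadjusted p of 0.05. The share of all probe sets under it was not counted for the pairs.

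Only probe sets annotated to 1 gene were searched for likeness. Among them, the genes whose signals followed CYP78A9 most closely over the 12 arrays were AT1G79030 (Pearson r = 0.974), AT5G62900 (0.970), AT3G15760 (0.967), AT1G68500 (0.967) and AT4G34950 (0.963). For CYP71B28 they were AT1G02300 (0.925), AT5G41560 (0.912), AT5G61560 (0.897), AT3G17800 (0.893) and AT1G53180 (0.892). These are descriptions over arrays of 4 groups, so a shared treatment difference enters each r.

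P450 pathway genes were largely outside what could be named. Of 88 P450 names in 15 lists by role (hormone synthesis and breakdown, glucosinolates, camalexin, phenylpropanoids, suberin, sterols and others), 4 had a named probe set, CYP78A9, CYP71B6, CYP79A2 and CYP84A4, and 11 lists had none. Of these 4, CYP78A9 passed (higher, in afb3-1 and for the average), and 0 were lower past the threshold. None of 8 listed electron donors of P450s, reductases and cytochromes b5, had one. Of 11 root and 10 shoot marker genes, 2 each had a named probe set. The annotation gave no gene for 8730 of the 22746 probe sets, so genes without a named probe set may still be on the array. The root hair expansins EXPA7 and EXPA18 had signals from 4.43 to 6.24. The shoot genes RCA and LHCB4.1 had signals from 4.73 to 7.32, so probe sets of photosynthesis genes gave signal in these root samples. The nitrate change of RCA was −0.29 in Ws and 0.26 in afb3-1 and that of LHCB4.1 was −0.52 and 0.20, none past the threshold. Both shoot genes had higher means in afb3-1 than in Ws. The log2 difference of RCA was 0.55 in KCl and 1.102 in KNO3 (unadjusted p = 0.145 and 0.00933, limma), and that of LHCB4.1 was 0.30 and 1.01 (unadjusted p = 0.535 and 0.0518), with every adjusted p at 1.00. The part of these genes in the P450 values was not tested.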

How the data were processed

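The deposited table holds log2 signals of 22810 probe sets on 12 arrays, made by the authors from Affymetrix arrays labelled by the 3′ IVT procedure, per the labels. For background correction, normalization and summarization, no method is given in the sources used here. The log2 scale was inferred from the range of the values. Sorted values of the arrays differed from their common mean by at most 0.176, so no further normalization was made. The 64 control probe sets were left out. Array medians lay between 3.78 and 3.92, and arrays of a group correlated with r of 0.973 to 0.996. Nor do those sources name batches or scan dates.

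Probe sets were named from the annotation of the array platform at GEO, with symbols brought up to date by Entrez identifier in RefSeq (TAIR10.1). All 23 members matched. No sequences or coordinates are shown. All 22746 probe sets were fitted with a mean for each of the 4 groups in limma 3.58.1 in R 4.3.3 (8 residual and 3.20 prior degrees of freedom), two-sided, with Benjamini-Hochberg adjustment over all probe sets and a threshold of 0.05. The fitting step was run on simulated data with known changes. Contrasts were nitrate in each genotype, their difference, their average, and afb3-1 minus Ws in each treatment. The average uses the same arrays as the nitrate contrasts.

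The members, lists and tests were chosen with earlier results of these data known. Genes named were members past the threshold, the 10 smallest p for the average, the 5 smallest p of each genotype contrast, list members, the leading member of any CYP family with 5 or more members, and the 5 most variable. Deviations of same-numbered arrays correlated by 0.301 to 0.661 between genotypes within a treatment, and by −0.281 to 0.542 between treatments within a genotype. Numbers were therefore taken to pair genotypes within a treatment, and this comes from the data. The ranges overlap, and arrays numbered 2 correlated between treatments by 0.542 in Ws and 0.527 in afb3-1. Alternatives were other normalizations, a filter on dim probe sets, replicate blocks, other moderation, array weights, fewer groups and leaving out arrays.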

Additional observations from a re-analysis of the deposited data

How the results depend on the processing

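With a fixed replicate block over all arrays, 1 member passed in Ws, 2 in afb3-1 (CYP78A9 and CYP71B23) and 4 for the average over genotypes (CYP71B28 and CYP71B34 as well), while the share of all probe sets called was 4.28%, 4.12% and 8.73%. With a random replicate block within a treatment, the counts were 1, 1 and 1, against 3.27%, 2.97% and 4.59% of all probe sets. Arrays numbered 2 also correlated between treatments, which this block does not take up. Both replicate blocks gave 0 for the genotype contrasts and the difference of responses, where 0% of all probe sets passed. Array weights gave 1 in Ws and 3 in afb3-1 (CYP78A9, CYP71B23 and CYP71B28), against 5.36% and 7.09% of all probe sets. No moderation gave 0 in afb3-1 and 1 for the average, against 1.83% and 5.09% of all probe sets. Fitting only the groups compared gave 2 in afb3-1, against 2.41%. Leaving out 1 array gave 0 to 1 in Ws, 0 to 2 in afb3-1 and 1 to 2 for the average. The share of all probe sets then ran from 1.63% to 2.99%, from 1.67% to 3.39% and from 4.81% to 7.45%. Chosen after seeing the data, pair means gave 0 for the average, against 2.35% of all probe sets. Leaving out both KNO3 arrays numbered 2, also chosen then, gave 1 in Ws and 1 for the average, against 2.59% and 5.79%. The cause was not tested. The median nitrate change of the members was −0.014 in Ws after quantile normalization, and −0.22 in Ws and −0.21 in afb3-1 over the 9 members left without the dimmest tertile, beside −0.0072 and −0.04 over all probe sets left.

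The nitrate changes of CYP78A9, CYP71B28, CYP71B23, CYP71B34 and CYP84A4, in each genotype and averaged, kept their sign in all 345 alternative values. Signs turned among differences between genotypes, that of CYP78A9 (0.57) included, and among small nitrate changes. Leaving out 1 array, the difference of responses ran from −0.018 to 1.25 for CYP78A9, from −0.17 to 0.10 for CYP71B28, from −0.39 to 0.17 for CYP71B34 and from −0.24 to 0.24 for CYP84A4. That of CYP71B28 was 0.0098 after quantile normalization and 0.014 after median centring, and that of CYP84A4 was −0.080 with array weights and −0.24 without both KCl arrays numbered 3. For afb3-1 minus Ws in KNO3, CYP78A9 ran from −0.33 to 0.94. The average nitrate change of CYP71B29 ran from −0.18 to 0.10, was 0.11 with array weights and 0.090 without both KCl arrays numbered 3, and that of CYP71B35 was 0.031 without both KNO3 arrays numbered 2. No member had more than 1 probe set, so the choice of probe set had no alternative.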

Other observations

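A pair of P450 probe sets shared by several genes was kept out of the members. The one for CYP71B19 and CYP71B20, which lie in the chromosome 3 stretch, had mean log2 signals of 2.41 in Ws KCl, 2.13 in Ws KNO3, 2.19 in afb3-1 KCl and 2.36 in afb3-1 KNO3. Its nitrate change was −0.28 ± 0.12 (SE) in Ws and 0.16 ± 0.12 in afb3-1, and neither passed (limma, adjusted p = 0.331 and 0.736). The difference of these responses was 0.44 ± 0.17 (SE, limma, unadjusted p = 0.0225) and did not pass (adjusted p = 0.999). The one shared by CYP79C2 and AT1G58265 stayed between 1.14 and 1.55.

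CYP718, a P450 whose name has no subfamily letter and so falls outside the pattern, had mean signals of 4.51 ± 0.17 (SD, n = 3) in Ws KCl and 3.83 ± 0.28 in Ws KNO3. In afb3-1 the means were 4.29 ± 0.36 in KCl and 3.53 ± 0.63 in KNO3. Its nitrate change of −0.68 in Ws and −0.76 in afb3-1 did not pass (limma, adjusted p = 0.320 and 0.291), nor did the average of −0.72 (adjusted p = 0.0589).

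After group means were removed, the deviations of CYP78A9 and CYP71B37 had the highest correlation of the 253 pairs of members, with Pearson r = 0.902 over the 12 arrays. Both genes were lowest among KNO3 arrays on those numbered 2, and the r is a description of these arrays.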
